A study of Mus musculus with 6 samples.

Results

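The transcripts described here are those of 9 members of the JAK and STAT families: the kinases Jak1, Jak2 and Jak3 and the transcription factors Stat2, Stat3, Stat4, Stat5a, Stat5b and Stat6. They were taken as the rows that carry these names, with no threshold on any value, and each had 1 row among the 30733 gene symbols of the tables. Janus kinases (JAKs) are tyrosine kinases bound to the inner part of cytokine receptors that lack a kinase of their own. When a cytokine joins the receptor chains, the JAKs phosphorylate each other and the receptor, STAT proteins dock there and are phosphorylated in turn, and STAT dimers then enter the nucleus and bind DNA. In blood formation this route carries the signals of erythropoietin, thrombopoietin, G-CSF, interleukin-3, the interleukins of the common gamma chain and the interferons.

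RNA sequencing was done on cells labelled as hematopoietic stem cells (HSCs), the cells from which all blood lineages arise, taken from bone marrow of wild-type (WT) mice aged 12 months. The cells had been sorted by surface MHC class II (MHCII), the complex that presents antigen to helper T cells, into MHCII_hi (here MHCII-hi) and MHCII_lo (MHCII-lo), with 3 libraries each; both groups share genotype and age, and no treatment is named. The labels as used here name no strain, no sort gate beyond MHCII and no number of animals. They also leave unsaid which libraries share an animal, so a p-value here reflects how much these libraries vary, a variation that may be technical only. Levels are in FPKM, a count of fragments divided by transcript length and library size, and so a per-length unit in which different genes can be compared.

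The 4 genes used to check the sort labels (Cd74, H2-Eb1, H2-Ab1 and H2-Aa) summed to 79.4 to 82.9 FPKM in the MHCII-lo libraries and 124 to 126 FPKM in MHCII-hi, and all 4 passed the test as higher. Of 20 stem cell genes, 9 stayed under 1 FPKM in all 6 libraries, among them Procr, Slamf1, Mecom, Fgd5 and Hoxb5, while Kit (14.3 and 13.9 FPKM in MHCII-lo and MHCII-hi) and Ly6a (10.4 in both) were present. Markers of mature cells were abundant. All 20 neutrophil markers were detected and higher in MHCII-hi, where they took 16.02 to 16.11% of summed FPKM against 2.90 to 2.92% in MHCII-lo, and none was at 0. All 10 tested dendritic cell markers were lower in MHCII-hi, as were 8 of 9 for monocytes and macrophages, 7 of 9 for eosinophils and 12 of 13 for erythroid cells, and 3 of 4 B cell markers were higher. FPKM values are shares of a library. For this reason the members' fold changes and the counts of the pathway lists were also computed after 2 other scalings. So were the fold changes of the tested list genes named below, except where marked. In bulk samples fewer cells of a type and less RNA per cell cannot be told apart. Of 12037 genes tested with limma on log2(FPKM + 1), 60.9% were called at an adjusted p under 0.05 (20.4% higher and 40.6% lower in MHCII-hi), and in 67.6% the groups did not overlap. Over all tested genes the log2 fold change had a median of −0.12, so values are also given relative to that median gene.

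All 9 JAK and STAT transcripts were expressed in both fractions. In MHCII-hi, 4 of them rose (Stat3, Jak3, Jak1 and Stat6), 2 fell (Jak2 and Stat5a), and Stat2, Stat4 and Stat5b did not pass the test. The share called, 66.7%, was near the 60.9% of all tested genes. The share that rose was 44.4%, against 20.4% of all tested genes, and the share that fell was 22.2%, against 40.6%. This contrast depended on the scaling: the members stayed at 4 and 2, while 27.1% of all tested genes rose and 27.3% fell after median-ratio scaling, and 28.4% rose and 25.6% fell with the total taken without neutrophil markers. The median log2 fold change of the 9 was −0.05, and 0.07 relative to the median gene. A positive fold change means a higher level in MHCII-hi, and adding 1 to FPKM before the log makes changes of low genes look smaller than they are.

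In MHCII-lo the order of levels was led by Stat6 (mean 32.7 FPKM), followed by Jak1 (30.2), Jak2 (28.6), Stat5b (19.6), Stat3 (13.4), Jak3 (8.62), Stat5a (7.91), Stat4 (6.17) and Stat2 (5.80). Of these neighbours only Jak3 and Stat5a overlapped in their 3 values, though the lowest Stat6 value (31.75) was barely above the highest of Jak1 (31.69). In MHCII-hi the order became Jak1 (43.2 FPKM), Stat6 (39.2), Stat3 (23.7), Jak2 (21.9), Stat5b (18.9), Jak3 (13.6), Stat5a (6.03), Stat4 (5.75) and Stat2 (5.46), and there the last 3 overlapped with their neighbours. Stat3 thus moved from the fifth to the third place and Jak2 from the third to the fourth. Among all tested genes, Stat3 stood above 68.7% in MHCII-lo and above 82.7% in MHCII-hi, Jak1 above 86.1% and 90.6%, and Stat2 above 43.2% and 42.9%.

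**Figure D1:**
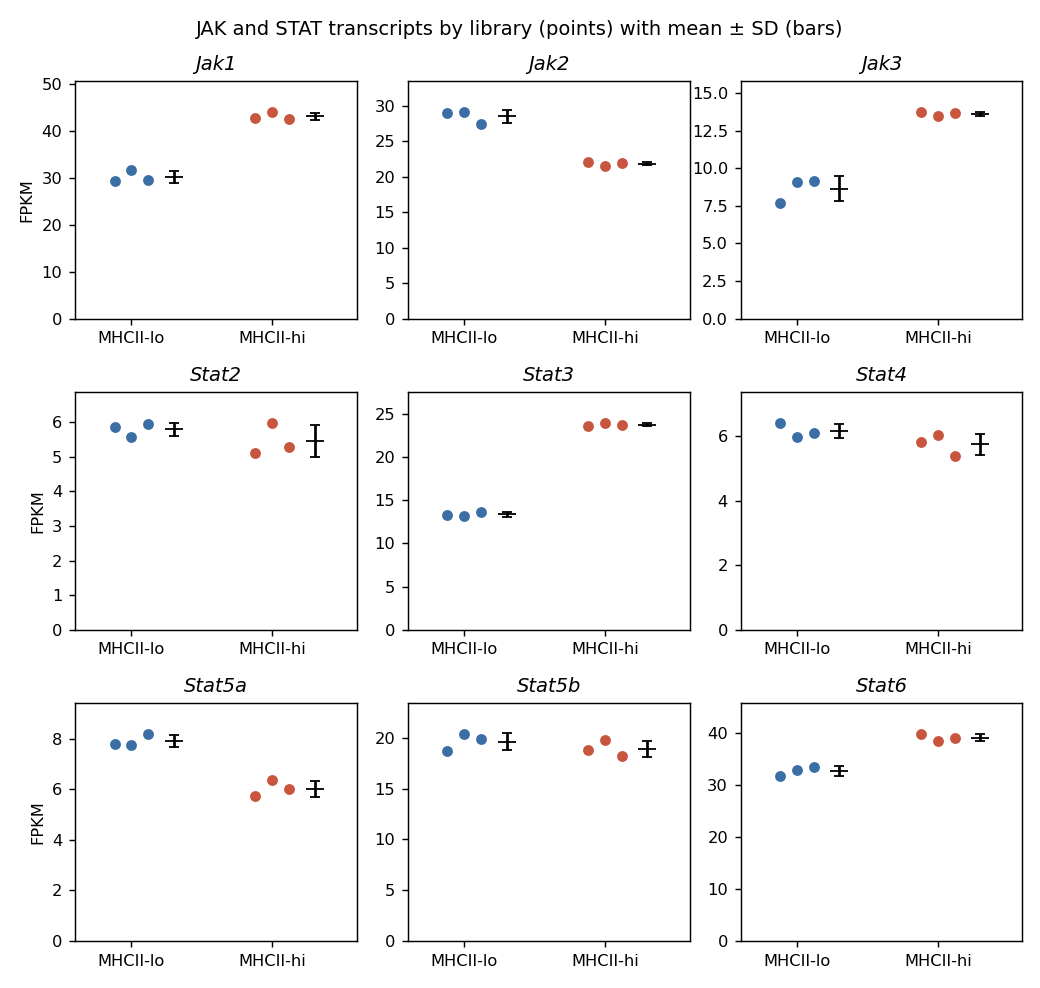
FPKM (vertical axes, each from 0) of the 9 transcripts in the 3 MHCII-lo (blue) and 3 MHCII-hi (red) libraries, with the mean and SD of each group as a bar beside the points. The groups lie apart for Jak1, Jak2, Jak3, Stat3, Stat5a and Stat6 and overlap for Stat2, Stat4 and Stat5b.

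Among the kinases, Jak1 and Jak3 rose and Jak2 fell. Jak1 serves the receptors of interferons, of the gp130 family and of the common gamma chain. Jak1 stood at 29.42, 31.69 and 29.52 FPKM in MHCII-lo and at 42.91, 44.09 and 42.62 FPKM in MHCII-hi. Every MHCII-hi library was above every MHCII-lo library, with a log2 fold change of 0.50 (SE 0.0362, limma adjusted p 3.18e-05), or 0.62 relative to the median gene. Jak2, the kinase of the erythropoietin, thrombopoietin and interleukin-3 receptors, was measured at 29.05, 29.15 and 27.53 FPKM in MHCII-lo and at 22.11, 21.60 and 21.94 FPKM in MHCII-hi. Here the MHCII-hi libraries were the low ones, without overlap, and the log2 fold change was −0.37 (SE 0.0325, limma adjusted p 8.49e-05). Jak3 binds the common gamma chain and is known mainly from lymphoid cells. Its values were 7.67, 9.06 and 9.14 FPKM in MHCII-lo and 13.73, 13.45 and 13.64 FPKM in MHCII-hi. The MHCII-lo libraries spread more (coefficient of variation 9.59%) than the MHCII-hi libraries (1.05%), with replicate 1 the lowest, and the groups did not overlap. The log2 fold change of Jak3 was 0.61 (SE 0.0645, limma adjusted p 0.000219). Summed over the 3 kinases, FPKM was 67.4 ± 2.16 in the MHCII-lo group and 78.7 ± 0.472 in MHCII-hi (SD, n = 3).

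Among the STAT factors, Stat3 had the largest change of the 9 transcripts. Stat3 acts downstream of G-CSF and of the gp130 cytokines such as interleukin-6. It was at 13.25, 13.18 and 13.63 FPKM in MHCII-lo and at 23.62, 23.93 and 23.68 FPKM in MHCII-hi, 1.78 times higher. The gap between the groups was many times the spread within them, with a log2 fold change of 0.79 (SE 0.0294, limma adjusted p 1.24e-06), and 91.8% of tested genes had a smaller absolute change. Stat6, the factor of interleukin-4 and interleukin-13, was the most abundant STAT in both fractions. Its levels were 31.75, 32.83 and 33.58 FPKM in MHCII-lo and 39.79, 38.51 and 39.17 FPKM in MHCII-hi. The groups were apart, with a log2 fold change of 0.25 (SE 0.0304, limma adjusted p 0.000395), a size near the middle of all tested genes, since 51.7% had a smaller absolute change.

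Stat5a and Stat5b are a pair of adjacent, closely related genes that act downstream of erythropoietin, thrombopoietin and interleukin-3. Stat5a was the member of the pair that fell, from 7.79, 7.75 and 8.18 FPKM in MHCII-lo to 5.72, 6.36 and 6.01 FPKM in MHCII-hi. All MHCII-hi values were below all MHCII-lo values, with a log2 fold change of −0.34 (SE 0.0485, limma adjusted p 0.000874). Stat5b stood at 18.68, 20.35 and 19.89 FPKM in MHCII-lo and at 18.79, 19.76 and 18.21 FPKM in MHCII-hi. These ranges overlapped, and the log2 fold change of −0.05 (95% interval −0.16 to 0.06) did not pass the test (limma adjusted p 0.36). Stat5b was the more abundant of the pair in every library.

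Stat2 and Stat4 were the least abundant members and did not pass the test. Stat2 joins Irf9 in the complex that answers type I interferon. It was at 5.87, 5.58 and 5.94 FPKM in MHCII-lo and 5.12, 5.97 and 5.28 FPKM in MHCII-hi, with a log2 fold change of −0.08 (95% interval −0.22 to 0.07, limma adjusted p 0.31). Stat4, the factor of interleukin-12 in T and NK cells, was at 6.41, 5.98 and 6.11 FPKM in MHCII-lo and 5.83, 6.03 and 5.39 FPKM in MHCII-hi. The Stat4 difference was −0.09 on the log2 scale (95% interval −0.21 to 0.04, limma adjusted p 0.185). MHCII-hi replicate 2 was the highest of all 6 libraries for Stat2, and for Stat4 it lay within the MHCII-lo range. The 21 T and NK cell markers of the list used here summed to 257 to 267 FPKM in MHCII-lo and 202 to 208 FPKM in MHCII-hi. Much of these sums was Nkg7 alone, at 160 FPKM in MHCII-lo and 137 FPKM in MHCII-hi. Of the 16 tested, 9 were lower and none higher, beside 40.6% and 20.4% of all tested genes. The rest did not pass, among them Cd3d, Cd3g, Cd8a and Lck. None of the 21 was at 0 in all libraries. The part of these markers in the Stat4 and Jak3 values was not tested.

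**Figure D2:**
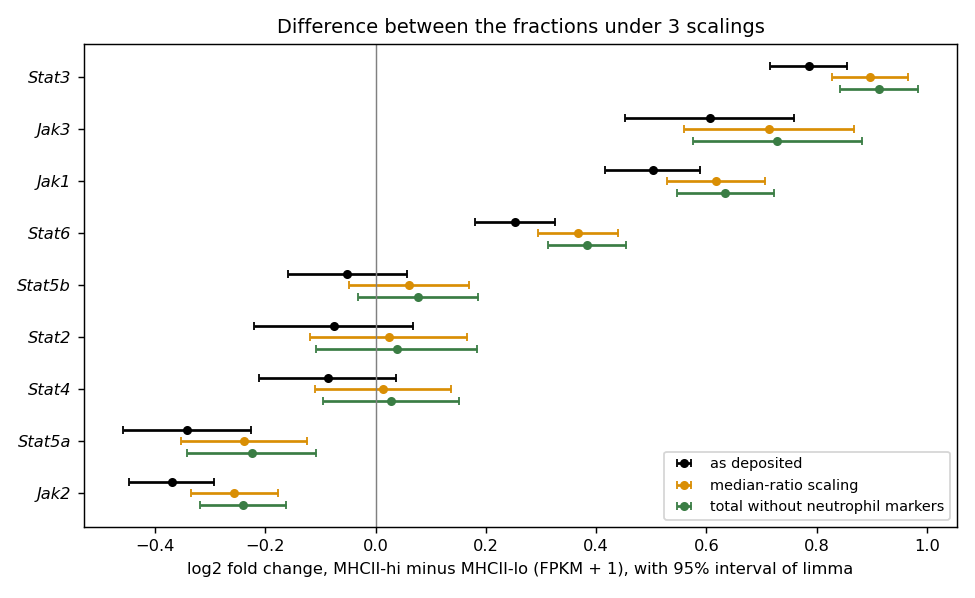
Log2 fold change (horizontal axis, MHCII-hi minus MHCII-lo, on FPKM + 1) of each transcript with the 95% interval of the limma fit, for values as deposited (black), after median-ratio scaling (orange) and after dividing by the library total without neutrophil markers (green). Both other scalings move all 9 upward by a similar amount; Stat3, Jak3, Jak1 and Stat6 stay above 0, Jak2 and Stat5a below it, and Stat2, Stat4 and Stat5b straddle it.

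The directions of the 6 called transcripts held under both other scalings and in every other alternative fit, and so did their calls. The sizes moved: with the total taken without the neutrophil markers, the log2 fold change of Jak2 was −0.24, that of Stat5a was −0.22, and that of Stat6 was 0.38, each over 1.5 times away from the deposited scale. Under the same scaling Stat3 reached 0.91 and Jak1 0.63. Median-ratio scaling brought the median gene from −0.12 to −0.02, and the total without neutrophil markers brought it to −0.01.

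A ratio of 2 transcripts within a library does not depend on how the library was scaled. An exact two-sided permutation test of 3 against 3 libraries cannot give a p below 0.1, so these ratios cannot reach 0.05. The ratio of Jak2 to Jak1 was 0.987, 0.920 and 0.933 in the MHCII-lo group and 0.515, 0.490 and 0.515 in MHCII-hi. Jak2 and Jak1 were thus near parity in MHCII-lo, and Jak1 was close to double Jak2 in MHCII-hi, without overlap (exact permutation p 0.1, 0.125 adjusted over the 5 ratios). The ratio of Stat3 to Stat5b was 0.709, 0.648 and 0.685 in the MHCII-lo group and 1.26, 1.21 and 1.30 in MHCII-hi, so that the more abundant of the 2 differed between the fractions (exact permutation p 0.1, adjusted 0.125). The ratio of Stat5a to Stat5b was 0.403 ± 0.0194 in the MHCII-lo group and 0.319 ± 0.0131 in MHCII-hi, again without overlap (SD, n = 3, exact permutation p 0.1, adjusted 0.125). The ratio of Stat6 to Stat3 went from 2.45 ± 0.0487 to 1.65 ± 0.0379 (SD, n = 3, exact permutation p 0.1, adjusted 0.125). Jak3 and Jak1 rose side by side: their ratio was 0.285 ± 0.0245 in the MHCII-lo group and 0.315 ± 0.00863 in MHCII-hi, with overlapping libraries (SD, n = 3, exact permutation p 0.2, adjusted 0.2).

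**Figure D3:**
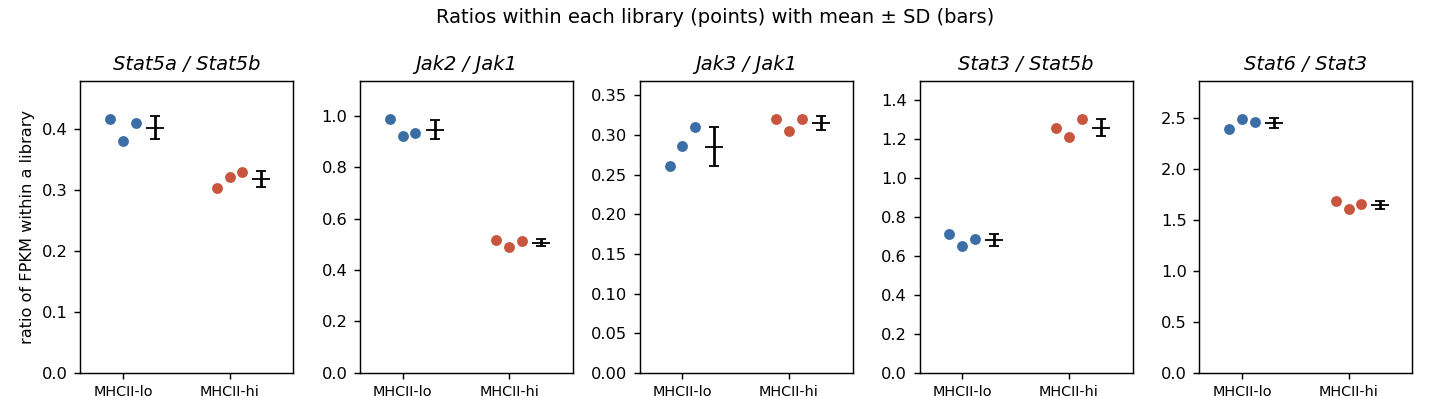
Ratio of the FPKM of 2 transcripts within each library (vertical axes, from 0; 5 pairs), by fraction, with mean and SD as bars. Jak2 / Jak1 drops from 0.920 to 0.987 in MHCII-lo to 0.490 to 0.515 in MHCII-hi, and Jak3 / Jak1 overlaps between the fractions.

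As shares of the summed JAK members, Jak1 made up 44.8 ± 0.463% in MHCII-lo and 54.9 ± 0.702% in MHCII-hi, Jak2 42.4 ± 1.31% and 27.8 ± 0.446%, and Jak3 12.8 ± 1.12% and 17.3 ± 0.256% (SD, n = 3). Of the 6 STAT members, Stat3 held 15.6 ± 0.218% of the sum in MHCII-lo and 23.97 ± 0.227% in MHCII-hi. The Stat5b share was 22.9 ± 0.739% and 19.1 ± 0.515%, and the Stat5a share 9.24 ± 0.169% and 6.09 ± 0.275%. Stat6 held 38.2 ± 0.283% and 39.5 ± 1.08%, with overlapping libraries. The other 5 STAT shares did not overlap between the fractions. Shares of 1 sum are tied to each other, so a rise in one lowers the rest.

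In the mouse genome (build GRCm38, GENCODE M21), 3 of the STAT genes are direct neighbours on chromosome 11. Stat5b (100780731 to 100850724, − strand) and Stat5a (100859351 to 100885169, + strand) stand head to head, 8626 bases apart. Stat5a and Stat3 (100885098 to 100939540, − strand) meet tail to tail and share 72 bases at their ends. The 3 neighbours went different ways: no call for Stat5b, a fall for Stat5a and a rise for Stat3. Whether the quantification used strand is not given. The shared bases are 0.756% of the exon bases of Stat3 and 1.01% of those of Stat5a. Their part in the values of Stat3 and Stat5a was not tested.

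**Figure D4:**
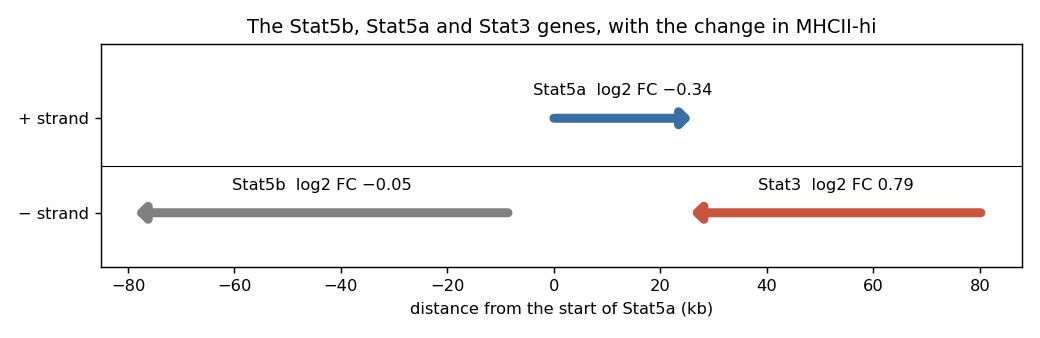
Positions of Stat5b, Stat5a and Stat3 by strand, as distance in kilobases from the start of Stat5a, with arrows in the direction of transcription and the log2 fold change (MHCII-hi minus MHCII-lo) written above each. Stat5a (blue, −0.34) fell, Stat3 (red, 0.79) rose and Stat5b (grey, −0.05) was not called.

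Reads of Stat5a and Stat5b can be hard to part, since their coding sequences (2394 and 2361 bases) matched at 90.7% of aligned bases, against 54.0 to 61.3% for the other STAT pairs. Of all 100-base stretches of the Stat5a transcript examined, 7.56% also occur in Stat5b, and the longest identical coding run is 324 bases (571 to 894 of the coding sequence). How the authors' quantification shared such reads is not given, so the levels of this pair carry that uncertainty. The 60 coding bases at which the pair differs most without a gap (85 to 144, counted from the first base of the start codon, GENCODE M21) are shown with the 19 differing bases in capitals, as an example of what lets a read be assigned to one gene:
Stat5a: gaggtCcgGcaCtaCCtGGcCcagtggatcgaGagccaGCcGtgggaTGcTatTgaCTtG
Stat5b: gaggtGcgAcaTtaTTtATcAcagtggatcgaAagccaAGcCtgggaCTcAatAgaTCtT
In the 1 transcript examined for each of Jak1, Jak2, Jak3, Stat2, Stat3 and Stat6, no 100-base stretch occurred in a transcript of another gene; exons of their other transcripts were not searched.

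The other members lie on separate chromosomes or far apart. Jak1 is on chromosome 4 (101152367 to 101265282, − strand), Jak2 on chromosome 19 (29251828 to 29313080, + strand) and Jak3 on chromosome 8 (71676296 to 71690575, + strand). Stat6 (127642986 to 127660957, + strand) and Stat2 (128270559 to 128292849, + strand) are both on chromosome 10, and Stat4 is on chromosome 1 (51987148 to 52107189, + strand). Insl3, a hormone gene of Leydig cells, overlaps Jak3 on the same strand, with 404 shared exon bases (7.55% of those of Jak3). Insl3 was at 0.253 ± 0.0709 FPKM in MHCII-lo and 0.723 ± 0.220 FPKM in MHCII-hi (SD, n = 3), below Jak3 and under the limit for testing. Its groups did not overlap, with MHCII-hi the higher, as for Jak3. The part of the shared bases in the Jak3 values was not tested. For Stat4, 27.2% of 100-base stretches also occur in Gm28177, an overlapping transcript listed at 0.00333 ± 0.00577 and 0.0933 ± 0.129 FPKM (SD, n = 3). Stat6 shares 40 end bases with Nab2 on the other strand, and Nab2, named for its position, fell while Stat6 rose (2.20 ± 0.246 to 1.43 ± 0.259 FPKM, SD, n = 3, limma adjusted p 0.0143, or 0.0514 without MHCII-lo replicate 1).

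The transcripts whose pattern over the 6 libraries was most like that of Stat3, by the root mean square difference of mean-centred log2 values among 10546 candidates, were Kctd12 (difference 0.00895), Vsir (0.00999) and Tmem71 (0.0139). Kctd12 went from 52.8 to 91.4 FPKM and Vsir, an inhibitory receptor of the B7 family, from 52.2 to 90.0 FPKM. The closest to Jak2 were Rps24, a ribosomal protein gene (0.0124), Pwwp3a (0.0168) and Cmpk1, a nucleotide kinase (0.0196). Rps24 went from 151 to 118 FPKM. Since the fractions differ in most genes, these likenesses rest mainly on the difference between the 2 groups.

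The ligands of the pathway were mostly low. Of 28 listed ligand genes, 26 were matched, 17 of these were under a mean of 1 FPKM and 9 were tested, of which 2 rose (22.2%, against 20.4% of all tested genes) and 7 fell (77.8%, against 40.6%). Without the filter 4 of 22 rose and 6 fell, beside 10.3% of 26858 genes higher and 17.1% lower. With either other scaling 2 of the 9 rose and 6 fell, beside 27.1% and 28.4% of all tested genes higher and 27.3% and 25.6% lower. Csf3, which encodes G-CSF, and Thpo, Il5 and Ifnb1 were listed at 0 in all 6 libraries. Il6 fell from 20.4 ± 1.13 to 7.31 ± 0.614 FPKM (SD, n = 3, log2 fold change −1.36, limma adjusted p 3.77e-06). Il12a (7.47 to 4.90 FPKM), Ifng (3.41 to 2.03 FPKM) and Cntf (1.83 to 0.853 FPKM) fell as well. Osm, a gp130 ligand and itself a STAT target, was the most abundant and rose from 83.3 ± 1.98 to 109 ± 2.03 FPKM (SD, n = 3). Ebi3, a subunit of interleukins 27 and 35, rose from 10.2 to 17.6 FPKM.

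Receptor chains went both ways. Of 29 tested, 13 rose (44.8%, against 20.4% of all tested genes), 9 fell (31%, against 40.6%) and 7 did not pass. The counts were the same under both other scalings, where 27.1% and 28.4% of all tested genes rose and 27.3% and 25.6% fell. The share of receptors that fell was thus below that of all genes as deposited and above it after either scaling. The median log2 fold change of the receptors was 0.10, or 0.22 relative to the median gene. Csf3r, the G-CSF receptor, rose from 40.5 ± 1.02 to 143 ± 3.02 FPKM (SD, n = 3, log2 fold change 1.80, limma adjusted p 2.44e-08); it is also one of the 20 neutrophil markers. Il4ra and Il13ra1 together form the type II receptor for interleukin-4 and interleukin-13, 1 of the receptors that signal to Stat6. Il4ra (9.43 ± 0.847 to 22.5 ± 0.303 FPKM) and Il13ra1 (7.94 ± 0.395 to 18.2 ± 0.999 FPKM) both rose (SD, n = 3). Ifnlr1, a chain of the interferon lambda receptor, rose from 0.627 ± 0.138 to 5.01 ± 0.177 FPKM (SD, n = 3). Il6st, which encodes gp130, fell from 10.2 ± 0.212 to 3.73 ± 0.187 FPKM (SD, n = 3, log2 fold change −1.24, limma adjusted p 1.17e-06). Il10ra (18.1 to 8.92 FPKM), Il2rb (8.80 to 5.03 FPKM) and the erythropoietin receptor Epor (4.13 to 2.22 FPKM) fell too. Epor belongs to the erythroid list, whose 13 genes summed to 595 to 605 FPKM in MHCII-lo and 373 to 388 FPKM in MHCII-hi. The next 2 receptors were chosen after their values were seen. Csf2rb, the Jak2-bound chain shared by interleukin-3 and GM-CSF receptors, rose from 24.96 ± 0.0458 to 49.8 ± 0.681 FPKM while Jak2 fell (SD, n = 3, limma adjusted p 2.15e-07). Il2rg, the common gamma chain to which Jak3 binds, was at 18.8 ± 1.06 and 17.3 ± 0.653 FPKM and did not pass (SD, n = 3, limma adjusted p 0.0932, 0.0261 without MHCII-lo replicate 2); its log2 fold change of −0.11 turned to 0.00 after median-ratio scaling and to 0.02 with the total without neutrophil markers.

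Of 13 partners (the kinase Tyk2, adaptors and coactivators), 3 rose (23.1%, against 20.4% of all tested genes), 5 fell (38.5%, against 40.6%) and 5 did not pass. After either other scaling 5 rose and 4 fell, beside 27.1% and 28.4% of all tested genes higher and 27.3% and 25.6% lower. The share called, 61.5%, was near the 60.9% of all tested genes. Their median log2 fold change was −0.05, or 0.07 relative to the median gene. Tyk2, the remaining JAK kinase, fell from 12.6 ± 0.714 to 10.3 ± 0.155 FPKM (SD, n = 3, limma adjusted p 0.00246). Irf9, the partner of Stat2, fell from 9.95 ± 0.484 to 7.74 ± 0.512 FPKM (SD, n = 3, limma adjusted p 0.00233). The adaptors Sh2b2 (4.88 to 3.52 FPKM) and Stam (5.24 to 4.28 FPKM) fell. Ep300, a histone acetyltransferase that STATs recruit, rose from 10.5 to 12.96 FPKM and Grb2, an adaptor, from 52.6 to 57.9 FPKM. Stam2 (4.83 to 5.40 FPKM) rose at a limma adjusted p of 0.0457, a call lost in 8 of 13 alternatives, leaving out any 1 of the 6 libraries included (adjusted p 0.0536 to 0.132).

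Inhibitors were also mixed. Of 16 tested, 5 rose (31.2%, against 20.4% of all tested genes), 7 fell (43.8%, near the 40.6% of all) and 4 did not pass. Their median was −0.07, or 0.05 relative to the median gene. After either other scaling 6 rose and 5 fell, beside 27.1% and 28.4% of all tested genes higher and 27.3% and 25.6% lower. Socs3, which blocks gp130 and G-CSF receptor signalling and is itself induced by Stat3, was the inhibitor with the largest rise, from 7.71 ± 0.456 to 17.2 ± 0.360 FPKM (SD, n = 3, log2 fold change 1.06, limma adjusted p 2.79e-06). The phosphatases Ptprc (25.7 to 46.2 FPKM), which encodes CD45, and Ptpn1 (20.95 to 27.4 FPKM) rose, as did the ubiquitin ligase Cbl (25.8 to 35.1 FPKM). Its relative Cblb fell from 5.32 to 2.67 FPKM. Usp18, an interferon-induced inhibitor, fell from 1.52 to 0.790 FPKM, and Socs6 (3.04 to 2.09 FPKM) and Socs7 (4.89 to 3.44 FPKM) fell. Cish, Socs1, Socs2 and Socs5 were under the limit for testing. Cish, an inhibitor induced by STAT5, stood at 0.913 ± 0.0351 FPKM in MHCII-lo and 0.700 ± 0.0400 FPKM in MHCII-hi (SD, n = 3).

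Of 21 tested STAT target genes, 10 rose (47.6%, against 20.4% of all tested genes), 6 fell (28.6%, against 40.6%) and 5 did not pass. Under each of the 2 other scalings 12 rose and 6 fell. Of all tested genes, 27.1% and 28.4% rose there and 27.3% and 25.6% fell. The 28.6% of targets that fell was then no longer below the share of all genes. The median of the targets was 0.16, or 0.28 relative to the median gene. Besides Socs3, the largest rises were in Bcl3 (4.41 ± 0.380 to 9.21 ± 0.791 FPKM), in Bcl2l1, which encodes the survival protein BCL-XL (3.62 ± 0.285 to 7.52 ± 0.663 FPKM), and in the repressor Bcl6 (2.90 ± 0.0751 to 6.04 ± 0.221 FPKM; SD, n = 3). Pim3, a survival kinase, fell from 19.2 ± 1.34 to 8.44 ± 0.127 FPKM and the cell cycle inhibitor Cdkn1a from 19.6 ± 0.594 to 10.3 ± 0.308 FPKM (SD, n = 3). Fos, the most abundant of the list, fell from 602 to 424 FPKM and Batf from 8.01 to 5.98 FPKM. Such targets answer to other factors as well. Each of the 5 pathway lists thus held both rises and falls. The part of the neutrophil markers and of the other cell type markers in the results of the lists was not tested.

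**Figure D5:**
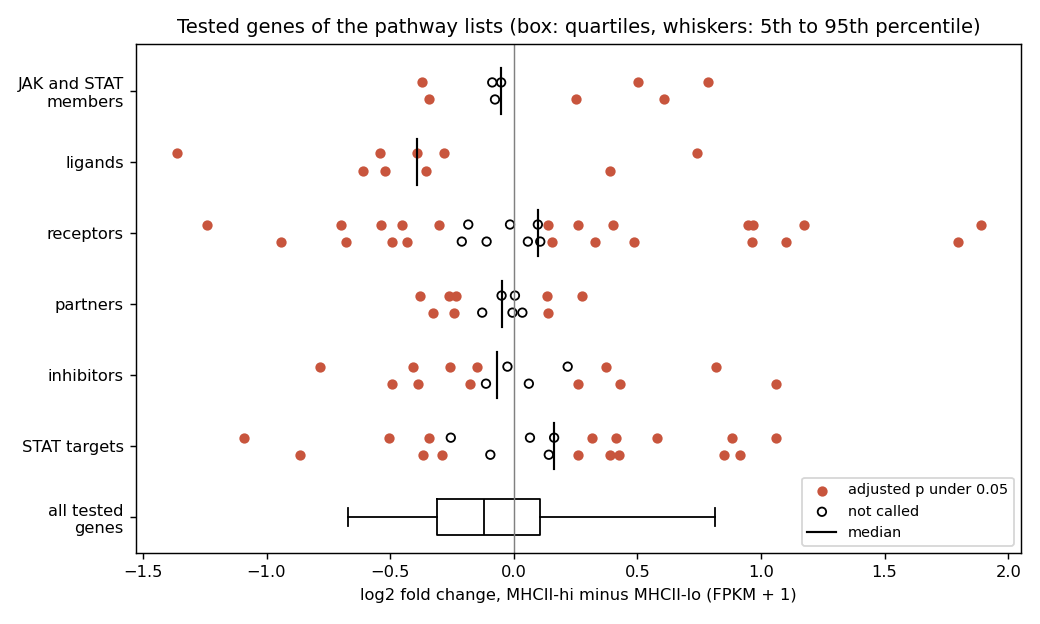
Log2 fold change (horizontal axis, MHCII-hi minus MHCII-lo) of each tested gene of the 9 members and 5 pathway lists; filled points passed the test, open points did not, and short vertical lines are medians. The box at the bottom gives the quartiles of all 12037 tested genes, whose median was −0.12; receptors and targets reach far to both sides, while 7 of 9 ligands lie below 0.

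The palindrome TTCNNNGAA, the same on both strands, is a motif that STAT dimers can bind. Only this form was searched, so binding sites of any other form were not counted for any member. In the RefSeq promoter windows of build GRCm38.p6, which run from 250 bases before to 50 bases after each start, this motif occurred in 8.30% of all 32851 windows. None of the 12 windows of the 9 members held it, which says only that these letters are not in those windows. By gene, it was in a window of 9.55% of all genes, and in those of 2 of 12 inhibitors, 3 of 17 targets, 6 of 32 receptors, 2 of 19 ligands and 0 of 12 partners with an entry. The 2 inhibitors, Cish and Socs3, are also among the 3 targets. Stretches of the windows of Cish, Socs3 and 1 of the Bcl6 starts are shown, with the motif in capitals, because they are the 3 targets whose windows hold it; the other 14 targets with an entry do not. Cish holds 2 copies at its start (chr9:107296654-107296683, + strand), Socs3 1 copy (chr11:117969367-117969616, − strand) and Bcl6 3 copies (chr16:23981284-23981533, − strand). More than 1 copy was found in 0.457% of all windows.
Cish: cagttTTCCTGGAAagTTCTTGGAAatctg
Socs3: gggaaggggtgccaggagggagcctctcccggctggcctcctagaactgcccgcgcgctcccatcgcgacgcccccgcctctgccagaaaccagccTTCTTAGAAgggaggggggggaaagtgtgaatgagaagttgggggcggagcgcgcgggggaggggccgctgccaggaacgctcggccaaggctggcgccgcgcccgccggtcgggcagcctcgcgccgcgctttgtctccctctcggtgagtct
Bcl6: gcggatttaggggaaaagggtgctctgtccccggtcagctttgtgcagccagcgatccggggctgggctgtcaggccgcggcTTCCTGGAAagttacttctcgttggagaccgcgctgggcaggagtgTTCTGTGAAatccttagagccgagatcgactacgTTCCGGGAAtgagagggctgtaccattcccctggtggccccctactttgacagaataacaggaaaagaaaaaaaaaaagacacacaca
A match of these letters is a description of the sequence and not a measured binding site. Genes with a match went both ways. Socs3 and Bcl6 rose in MHCII-hi, and Ifng fell. Named after their values were seen, Csf2rb2 (7.72 to 15.8 FPKM), Il7r (2.42 to 3.10 FPKM) and Ifnar1 (9.68 to 10.8 FPKM) rose. Il4 (2.17 to 1.48 FPKM) and Ifnar2 (29.5 to 21.6 FPKM), also named after their values were seen, fell. Cish, Il12rb2 and Prlr were too low to be tested. The calls of Csf2rb2, Il7r and Ifnar1 (limma adjusted p 1.97e-06, 0.0119 and 0.0311) were not examined under the alternatives. The call of Il4 (limma adjusted p 0.019) was lost in 6 of 13 alternatives: without the filter, under both other scalings, and without MHCII-lo replicate 2, MHCII-hi replicate 1 or MHCII-hi replicate 3 (adjusted p 0.0513 to 0.0592).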

How the data were processed

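The members and lists were chosen with earlier results of these data known. The submitters' processing notes name fastp, HISAT2, StringTie and build GRCm38 (mm10); their versions, the annotation and the strand setting are not given. The authors deposited 1 table per library (30803 rows), whose values are taken as FPKM: no header names the unit, sums of 327364 to 346651 differ between libraries, and StringTie writes FPKM. Among genes with a single exon (600 to 4000 bases), low values showed no clear step worth 1 fragment (highest mean cosine 0.0871 to 0.109), so depth is unknown and no counting interval is given.

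Symbols on several rows (70 extra rows) were reduced to their most abundant row. Genes averaging 1 FPKM or more were tested on log2(FPKM + 1) with limma 3.58.1 (R 4.3.3), group as the only term, an intensity trend and Benjamini-Hochberg adjustment over 12037 genes. Libraries of a group correlated at 0.991 to 0.993 over those genes. In simulated data of 12037 genes, 50 genes were changed at each of 1.25-, 1.5-, 2- and 4-fold. The fit recovered 44%, 78%, 96% and 100% of these, with 10 of 169 calls false. Far more genes were called in the real data (60.9%), so recovery there may differ. Named were the 9 members, the class II check genes, up to 4 called genes per list and direction with the largest change, and the 3 genes most like the members with the largest rise and fall; others are marked. Symbols Il3, Il9 and Il22ra1 were not analysed here, and 1 gene of the partner list is not reported here and was taken out of its counts. Positions and transcripts are from GENCODE M21 (GRCm38), promoters from RefSeq. Alternatives changed the pseudocount (0.1, 5), the filter, the scaling (2 ways), the trend, the replicate block and each library in turn; those for ligand counts and 5 single genes were added after seeing the data.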

Additional observations from a re-analysis of the deposited data

How the results depend on the processing

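Counts of members called were 4 higher and 2 lower in all 13 alternatives. The 3 members without a call changed sign under other scalings: Stat2 to 0.0239, Stat4 to 0.0136 and Stat5b to 0.0607 after median-ratio scaling, and to 0.0382, 0.0280 and 0.0768 with the total without neutrophil markers; Il2rg went to 0.00162 and 0.0176. Scaling by the 2 ways also moved the split of all called genes, from 2450 higher and 4883 lower to 3255 and 3281 (median-ratio) or 3420 and 3088 (total without neutrophil markers). Without a filter on low values, 4 ligands were higher in place of 2, with 22 tested in place of 9. Of the 13 partners, 5 were higher in place of 3 after median-ratio scaling, and also 5 with the total without neutrophil markers. Other list counts stayed within 1.5 times. The ratios kept their direction without any 1 library; Jak3 to Jak1 ranged from 0.0821 to 0.206 on the log2 scale.

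Same-numbered libraries of the 2 groups showed no positive correlation of their deviations from the group mean (−0.0533 to −0.0434 over genes). Values this small, from 3 libraries per group, cannot tell whether the numbers pair them. With the replicate number as a block, 6964 genes were called in place of 7333 and members stayed at 4 higher and 2 lower. The block cannot move a fold change in this balanced design; the limma adjusted p of Stat3 went from 1.24e-06 to 9.36e-05. Depth is unknown, so no limit of detection can be given for ligands listed at 0.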
